A study of Homo sapiens with 6 samples.

Results

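The genes described here encode the enzymes of lower glycolysis from aldolase to enolase. They are ALDOA, ALDOC, TPI1, GAPDH, PGK1, PGAM1, ENO1, ENO2 and ENO3. They were chosen by symbol, as aldolases A and C and the main genes of each following step down to the enolases. All 9 had values, out of 14200 genes in the table. Their transcripts were sequenced in Huh7 cells, an established line from a human liver cancer, grown in DMEM with serum. The labels give 3 control libraries and 3 libraries of cells made SETD5-deficient by siRNA transfection with RNAiMAX. The siRNA sequence, the time after transfection and what the control cells received are not stated. Separate cultures are not named in the labels either, so the p-values rest on a spread between libraries that may be technical alone.

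Glycolysis splits a six-carbon sugar phosphate into triose phosphates and oxidises them to pyruvate. Aldolase makes the cut, triose-phosphate isomerase interconverts the products, and GAPDH carries out the oxidation. Phosphoglycerate kinase then yields ATP, phosphoglycerate mutase moves the phosphate group, and enolase makes phosphoenolpyruvate, the substrate of pyruvate kinase. These steps are reversible, so liver cells also run them backwards in gluconeogenesis. Several of the genes are textbook targets of hypoxia-inducible factor, MYC and the carbohydrate response factor, which bind short DNA words: ACGTG or GCGTG is the core for the first, and the E-box CACGTG for the others.

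The 250 bases before a RefSeq start are shown for 4 members, on GRCh38.p14 and 5′ to 3′ along the gene. ALDOA (the second of its 3 windows) and PGK1 had the largest falls. ENO1 and ENO2 are isoenzymes of a single step, of which ENO1 fell and ENO2 did not pass the test. Capitals mark ACGTG or GCGTG on either strand (CACGT and CACGC when read on the opposite strand).
ALDOA (chr16:30064247-30064496, plus strand): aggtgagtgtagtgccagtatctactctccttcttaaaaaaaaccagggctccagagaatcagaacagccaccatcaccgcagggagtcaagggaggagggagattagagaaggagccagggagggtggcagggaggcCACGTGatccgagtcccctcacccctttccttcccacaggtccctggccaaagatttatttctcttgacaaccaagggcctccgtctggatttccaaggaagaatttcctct
PGK1 (chrX:78103998-78104247, plus strand): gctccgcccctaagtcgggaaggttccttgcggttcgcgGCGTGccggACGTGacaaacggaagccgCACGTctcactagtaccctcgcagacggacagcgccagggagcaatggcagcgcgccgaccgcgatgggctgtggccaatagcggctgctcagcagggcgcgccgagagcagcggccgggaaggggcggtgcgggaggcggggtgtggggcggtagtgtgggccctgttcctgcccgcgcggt
ENO1 (chr1:8878687-8878936, minus strand): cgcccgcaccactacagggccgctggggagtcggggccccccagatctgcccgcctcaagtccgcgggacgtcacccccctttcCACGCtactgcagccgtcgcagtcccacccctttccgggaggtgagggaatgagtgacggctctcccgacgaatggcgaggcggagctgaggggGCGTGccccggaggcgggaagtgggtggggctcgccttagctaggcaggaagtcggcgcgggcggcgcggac
ENO2 (chr12:6914330-6914579, plus strand): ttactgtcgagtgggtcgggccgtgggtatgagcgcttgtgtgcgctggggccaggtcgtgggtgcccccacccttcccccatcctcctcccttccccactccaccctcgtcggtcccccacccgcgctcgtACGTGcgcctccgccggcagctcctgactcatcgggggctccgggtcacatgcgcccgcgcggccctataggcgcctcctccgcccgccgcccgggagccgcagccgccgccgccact

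In the ALDOA stretch the capitals form CACGTG, the palindromic E-box, which contains ACGTG on both strands and begins 112 bases before the start. PGK1 held 2 copies of ACGTG, beginning 202 and 183 bases before the start, and 1 of GCGTG at 211. ENO1 held GCGTG at 166 and 72 bases before the start and no ACGTG, and ENO2 held ACGTG at 118. Searched in the same way over 13 RefSeq windows of the 9 members, 8 members held ACGTG or GCGTG in at least 1 window. By window the count was 10 of 13, against 43.2% of all 35116 RefSeq promoter windows of that length. ALDOA has 3 windows and TPI1 and ENO3 have 2 each, so the counts by member and by window differ. ACGTG alone was in 8 of the 13 windows, against 18.5% of all. CACGTG was in 1 window each of 3 members (ALDOA, ALDOC and GAPDH), thus in 3 of the 13 windows, against 6.34% of all windows. The PGAM1 window held none of these words. For GAPDH and PGAM1 the bases after the RefSeq start are not in the GENCODE 29 transcript used here, so their windows may precede another start than the main one. The same holds for windows 1 and 3 of ALDOA, window 2 of TPI1 and window 1 of ENO3. For TPI1 and ENO3 those were the only windows with a word. Window 1 of TPI1 and window 2 of ENO3, whose starts match the transcript, held none. The counts by member and by window include all of these, so they do not describe main starts alone. By base content the 4 stretches shown are 53.2 to 74% G and C, and the shares over all windows were not matched for it. A word match is a description of the letters and not evidence of binding.

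SETD5 itself was lower in every knockdown library, at 0.664 times the control mean (log2 fold change -0.59, SE 0.032, limma adjusted p = 1.15e-17), so the cells kept much of the transcript. The recovered depth was 14038447 to 17095417 reads per library, and 12865 genes averaging 1 CPM or more (reads scaled to the library total) were tested, the 9 members among them. Fold changes are differences of log2(CPM + 1), which understates the change of low genes, and the median over all tested genes was -0.0012. The 10 hepatocyte markers listed all had values and summed to 44975 to 45983 CPM in the controls and 41813 to 42110 CPM after knockdown, of which AFP alone averaged 21336 and 20268 CPM. Of these markers 7 were called lower, 2 higher and 1 did not pass, with a median log2 fold change of -0.21. Most markers of the cells' own type were thus lower as well, where 26.5% of all tested genes were called lower. Of the tested genes averaging at least 100 CPM, 34.4% were. TTR was at 0.619, APOB at 0.682, AHSG at 0.709 and TF at 0.784 times the control, named after their values were seen. Their part in the member values was not tested. In these bulk libraries, fewer cells of a type and less RNA per cell cannot be told apart.

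After SETD5 knockdown, every step from aldolase to enolase had its most abundant gene lower. Of the 9 members, 7 fell (ALDOA, ALDOC, TPI1, GAPDH, PGK1, PGAM1 and ENO1), none rose, and ENO2 and ENO3 did not pass the test. Among all tested genes 26.5% were called lower and 25.7% higher at a Benjamini-Hochberg adjusted p under 0.05. All of the 7 except ALDOC averaged over 100 CPM. Of the 2210 tested genes averaging at least 100 CPM, 760 were called lower (34.4%) and 757 higher. The median log2 fold change of the members was -0.33. In the same 7 members every knockdown value lay below every control value, where 28.8% of all tested genes did so. ENO2 did the reverse, as 28.6% of tested genes did. The summed level of the 9 members went from 7756, 7482 and 7754 CPM in controls 1 to 3 to 6067, 6127 and 5995 CPM in knockdown libraries 1 to 3. The mean of the sum was thus 0.791 times the control, and GAPDH alone made up 46.7% of the difference.

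**Figure D1:**
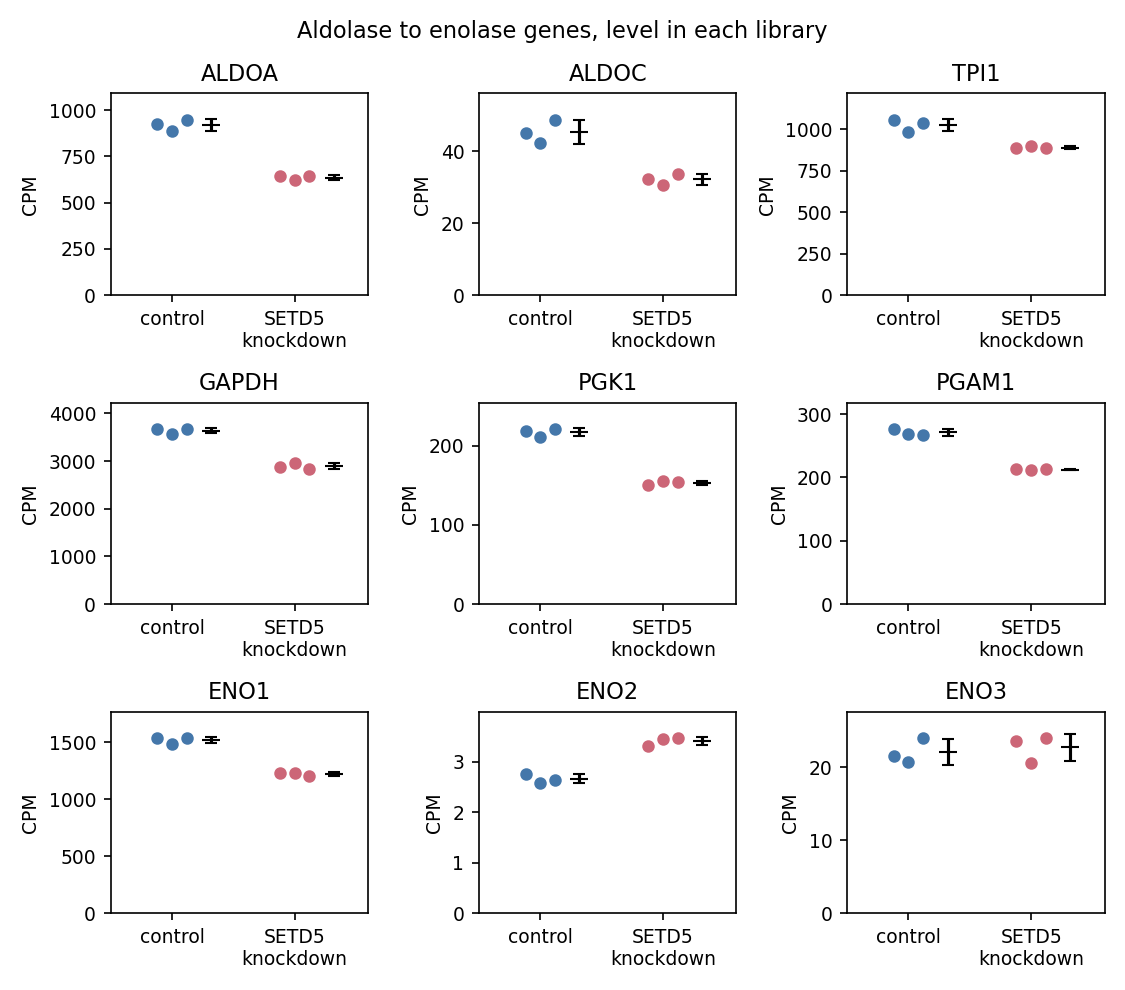
CPM of each of the 9 genes in the 3 control (blue) and 3 SETD5 knockdown (red) libraries, with black marks for mean ± SD, each axis starting at 0. ALDOA, ALDOC, TPI1, GAPDH, PGK1, PGAM1 and ENO1 are lower in all knockdown libraries, ENO2 is higher in all of them at 2.58 to 3.47 CPM, and ENO3 overlaps.

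ALDOA, the aldolase of muscle and most dividing cells, was at 925, 887 and 948 CPM in controls 1 to 3 and at 643, 623 and 642 CPM in knockdown libraries 1 to 3. The groups were far apart relative to their spread, and ALDOA averaged 0.691 times its control level, a log2 fold change of -0.53 (SE 0.027, limma adjusted p = 1.63e-18). This was the largest fall among the members. ALDOC, the aldolase typical of brain, was at 45.3, 42.3 and 48.8 CPM in the controls and 32.3, 30.6 and 33.8 CPM after knockdown. Its log2 fold change was -0.48 (SE 0.055, limma adjusted p = 2.83e-09), again with no overlap.

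The proportion of the aldolase pair overlapped between the groups. ALDOC stood at 4.94 ± 0.195% of the ALDOA level in the controls (SD, n = 3) and 5.07 ± 0.182% after knockdown (SD, n = 3). The log2 ratio differed by 0.038 between groups (exact two-sided permutation p = 0.4), less than the SD among libraries of either group (0.057 and 0.051).

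TPI1, the isomerase that makes both triose phosphates usable, had the smallest of the 7 falls. It was at 1056, 985 and 1035 CPM in the controls and 885, 897 and 883 CPM after knockdown. The lowest control still exceeded the highest knockdown library, and the mean was 0.867 times that of the controls. On the log2 scale this is -0.21 (95% interval -0.26 to -0.15, limma adjusted p = 3.71e-08). This lies outside the interval of ALDOA (-0.59 to -0.48). ALDOA was at 89.8 ± 1.99% of TPI1 in the controls and 71.6 ± 1.84% after knockdown (SD, n = 3 per group), with no overlap between groups. The exact two-sided permutation p of that ratio was 0.1, the smallest that 3 against 3 allows, and the pair was picked after the values were seen. ALDOA and TPI1 had the largest and smallest of the 7 falls, so their unequal amounts are a description and not a test.

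GAPDH, which oxidises glyceraldehyde 3-phosphate and reduces NAD, was the 12th most abundant gene of the table. It was at 3676, 3577 and 3666 CPM in the controls and 2884, 2956 and 2835 CPM after knockdown. All knockdown libraries were lower than all controls by a margin several times the SD of either group (54.4 and 60.9 CPM), with a log2 fold change of -0.33 (SE 0.025, limma adjusted p = 1.45e-13). PGK1, the first ATP-yielding enzyme of the pathway, was at 218, 211 and 221 CPM in the controls and 150, 155 and 154 CPM after knockdown. Its log2 fold change of -0.50 (SE 0.031, limma adjusted p = 6.80e-16) was next to that of ALDOA in size. PGK1 was at 5.95 ± 0.0705% of GAPDH in the controls and 5.30 ± 0.117% after knockdown (SD, n = 3 per group), again with no overlap (exact two-sided permutation p = 0.1).

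PGAM1, the phosphoglycerate mutase of most tissues, was at 277, 269 and 268 CPM in the controls and 213, 212 and 213 CPM after knockdown. The knockdown libraries lay within an SD of 0.829 CPM of each other, and the log2 fold change was -0.35 (SE 0.029, limma adjusted p = 1.26e-12). PGAM4, a near-identical retrocopy of PGAM1, was at 6.09, 5.85 and 4.72 CPM in the controls and 4.56, 3.07 and 2.93 CPM after knockdown. It was called lower too (limma adjusted p = 0.000457), but reads of both copies may have been split between them in counting, so the PGAM4 value is uncertain. GAPDH and TPI1 also have processed pseudogenes, and how such reads were assigned is not given in the sources used here. BPGM, a mutase paralog that makes 2,3-bisphosphoglycerate from an intermediate of the same stretch, rose from 14.5 ± 0.908 to 18.3 ± 1.06 CPM (SD, n = 3 per group; limma adjusted p = 0.000699).

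Among the enolases the abundant form fell and the scarce forms did not. ENO1, the enolase of most tissues, was at 1535, 1488 and 1541 CPM in the controls and 1232, 1231 and 1207 CPM after knockdown. The log2 fold change was -0.31 (SE 0.025, limma adjusted p = 4.09e-13) and the groups did not overlap. ENO2, the enolase of neurons and neuroendocrine cells, was at 2.75, 2.58 and 2.64 CPM in the controls and 3.31, 3.44 and 3.47 CPM after knockdown. Every knockdown value was higher, but these levels rest on 37 to 47 reads per control library and 53 to 58 per knockdown library. The log2 fold change of 0.27 (95% interval 0.021 to 0.52) did not pass after adjustment over all genes (limma adjusted p = 0.0638). It did pass without the mean-variance trend (limma adjusted p = 0.00176), and the other settings gave 0.0521 to 1. ENO3, the enolase of muscle, was at 21.5, 20.7 and 24.0 CPM in the controls and 23.6, 20.5 and 23.9 CPM after knockdown. These overlap, with a log2 fold change of 0.038 (95% interval -0.10 to 0.18, limma adjusted p = 0.671), an interval that leaves out a fall as large as that of ENO1.

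The ratios of ENO2 and ENO3 to ENO1 lay apart between the groups. ENO2 was at 0.179, 0.173 and 0.172% of ENO1 in controls 1 to 3 and at 0.269, 0.279 and 0.287% in knockdown libraries 1 to 3. The groups were separate, and the log2 ratio was higher by 0.67 after knockdown (exact two-sided permutation p = 0.1, the smallest possible). ENO3 was at 1.45 ± 0.0943% of ENO1 in the controls and 1.86 ± 0.168% after knockdown (SD, n = 3 per group), also without overlap (exact two-sided permutation p = 0.1). Adjusted over the 7 ratios computed, the smallest p was 0.117, so none could pass. The ENO2 to ENO1 and ALDOC to ALDOA ratios were planned, and the other 5, PGK1 to GAPDH and ENO3 to ENO1 among them, were picked after the values were seen. All 3 enolases have a coding length of 1302 bases, so that these percentages also hold per coding length. ENO1 made up nearly all enolase transcripts in both groups, and the summed enolase level went from 1546 to 1249 CPM, 0.808 times the control, beside 0.804 for ENO1 alone.

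**Figure D2:**
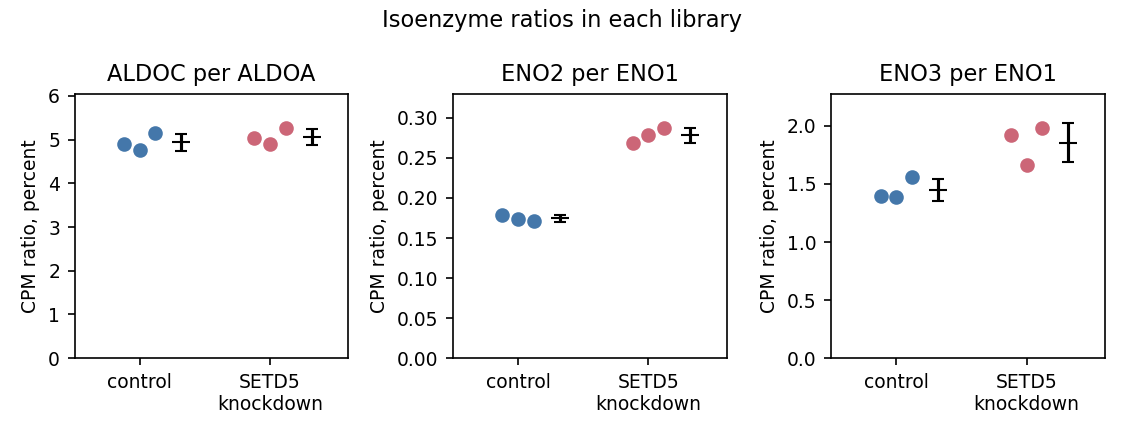
Level of ALDOC relative to ALDOA, and of ENO2 and ENO3 relative to ENO1, as a percent of CPM in each control (blue) and SETD5 knockdown (red) library, with black marks for mean ± SD. The ALDOC ratio overlaps between groups near 5%, whereas ENO2 goes from at most 0.179% to at least 0.269% of ENO1 and the ENO3 ratio is also higher in all knockdown libraries.

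ENO2 and ENO3 are marker genes of neurons and muscle, so the lists of those tissues are given beside them. Of 10 neuron markers 6 had values, and their sum went from 57.5 to 61.5 CPM in the controls to 144 to 148 CPM after knockdown. TUBB3 carried nearly all of that, at 4.11 times the control, and MAP2 rose to 2.11 times the control. SYT1, a synaptic vesicle protein, fell to 0.638 times, and SYP, SNAP25 and GAP43 did not pass. Of 10 skeletal muscle markers only ACTA1 and TTN had values, and they summed to 19.2 to 23.6 CPM and 19.5 to 26.9 CPM. ACTA1 fell to 0.429 times the control and TTN did not pass. Immune (4 of 6 with values, 261 to 287 and 629 to 707 CPM, mostly LYZ) and fibroblast markers (4 of 6, 169 to 178 and 313 to 323 CPM, mostly COL1A2) summed higher after knockdown, but the lists were mixed. Of the immune markers LYZ was called higher and CD14 lower, at 0.485 times the control, and PTPRC and CD68 did not pass. Of the fibroblast markers 3 were called higher (COL1A2, COL3A1 and LUM) and 1 lower, PDGFRB at 0.722 times the control. Endothelial markers (2 of 5) were at or below 1.35 CPM in sum. The part of these genes in the enolase values was not tested.

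Per coding length the order of levels was the same in both groups, and no neighbours in that order overlapped. From the highest down it was GAPDH, TPI1, ENO1, ALDOA, PGAM1, PGK1, ALDOC, ENO3 and ENO2. In the controls the means in CPM per kilobase of coding sequence were 3622 for GAPDH, 1372 for TPI1, 1168 for ENO1, 842 for ALDOA, 356 for PGAM1 and 173 for PGK1. After knockdown the same 6 were at 2877, 1189, 940, 582, 279 and 122. Scaled to the whole transcript, TPI1 and ENO1 changed places in the controls. Untranslated parts also yield reads, and PGK1 has a long one, so this scale is approximate. PGK1 was the lowest of the main enzymes, below even PGAM1, both before and after knockdown.

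The other steps of glycolysis showed where this stretch lies within the pathway. Of 18 listed genes from hexokinase to lactate dehydrogenase, 12 were tested. Of these 8 fell, 2 rose and 2 did not pass, with a median log2 fold change of -0.35 beside -0.33 for the aldolase to enolase genes. Among the 12 tested, the largest falls were those of PKM (-1.55) and PKLR (-1.53), the pyruvate kinases. PFKFB4 (-0.80) and PFKL (-0.77), which act at phosphofructokinase, came next. Not every gene of the control points fell as far: PFKM was at -0.48 and HK2, a hexokinase, at -0.22. Both were called lower, and are named after their values were seen. LDHA, which turns pyruvate into lactate, had a log2 fold change of -0.68, and GPI, the isomerase before phosphofructokinase, of -0.11, both called lower. LDHB, below the 1 CPM minimum and so not tested, went from 1.21 to 0.329 CPM. HK1 (0.919 to 2.19 CPM) and PFKFB3 (109 to 134 CPM) were the 2 that rose, and are named after their values were seen. HK1 was under 1 CPM in the controls and met the 1 CPM minimum only through its knockdown values, so its call is no support for a rise. No member of the aldolase to enolase stretch had an interval that reached the fall of PFKL, LDHA or PKM.

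**Figure D3:**
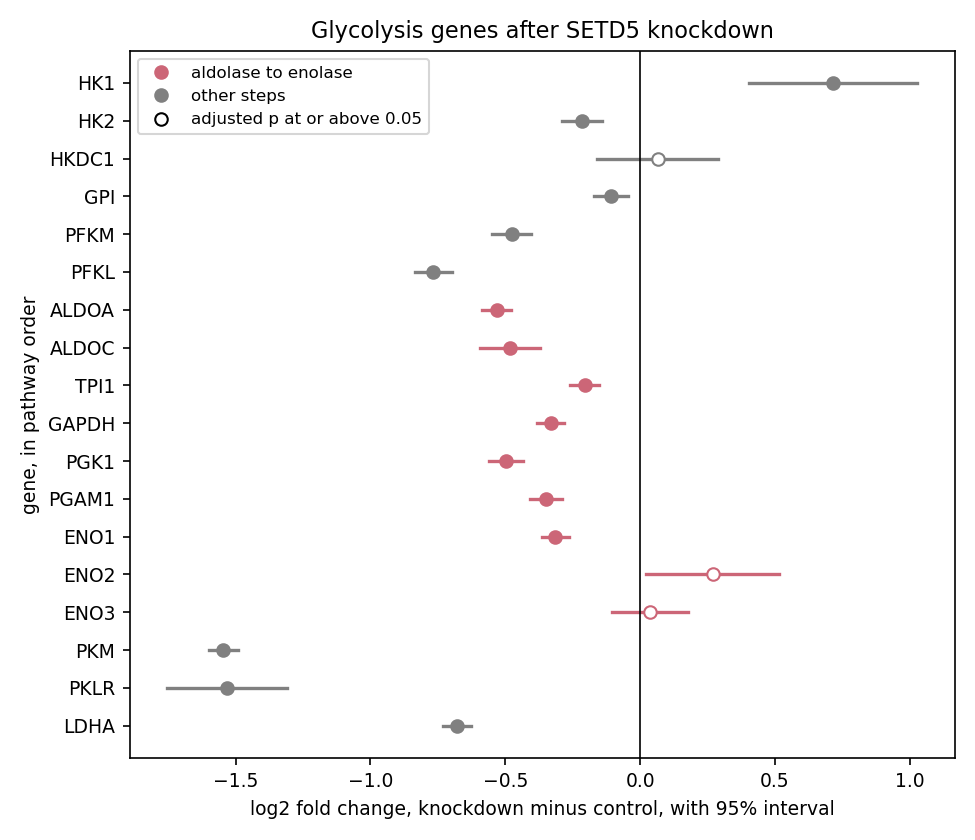
Log2 fold change (knockdown minus control) with its 95% interval for glycolysis genes in pathway order, the aldolase to enolase genes in red and other steps in grey, open points not passing an adjusted p of 0.05. The 7 falling genes lie between -0.53 and -0.21, above PFKL at -0.77, LDHA at -0.68 and PKM at -1.55.

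Pathways that draw on the same triose and phosphoglycerate intermediates were split. Of 16 tested genes, 7 fell and 7 rose, with a median of 0.052. PHGDH, which diverts 3-phosphoglycerate into serine, rose from 235 ± 7.49 to 293 ± 8.56 CPM (SD, n = 3 per group; limma adjusted p = 6.61e-11), and PSAT1, the next enzyme, rose by 0.19 on the log2 scale. PSPH, which completes that branch, fell to 0.81 times the control and is named after its values were seen. In the pentose phosphate branch TKT rose to 1.09 times and RPIA to 1.34 times the control, TALDO1 fell to 0.863 times (named after its values were seen), and RPE did not pass. KHK, which starts fructose use, fell to 0.535 times, and FBP1, the gluconeogenic partner of phosphofructokinase, to 0.643 times the control.

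GAPDH and PGK1 also serve as reference genes for quantitative PCR, so they were set beside 13 others of that use. Of the 15, 6 fell, 1 rose and 8 did not pass, with a median of -0.039. SDHA, PGK1, GAPDH and HPRT1 had the largest changes, at 0.705, 0.707, 0.794 and 0.799 times the control. ACTB fell to 0.91 times, and RPLP0 did not pass at 0.985 times the control (95% interval of the log2 fold change -0.072 to 0.030). Divided by GAPDH in each library, SETD5 stood at 0.836 ± 0.0123 of its control mean after knockdown (SD, n = 3). Divided by RPLP0 it stood at 0.674 ± 0.00133, and divided by PGK1 at 0.939 ± 0.00708. The same knockdown therefore had a different apparent size on each reference gene.

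**Figure D4:**
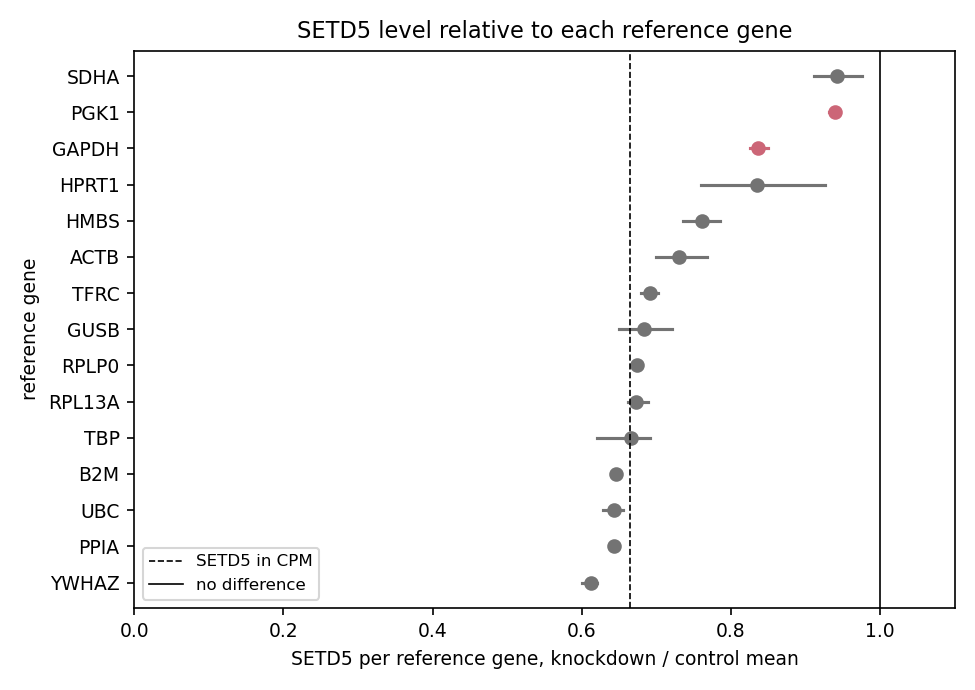
SETD5 level divided by that of each reference gene, as a ratio to the control mean, for the 3 knockdown libraries (point for the mean, line from the lowest to the highest library), with GAPDH and PGK1 in red. The dashed line is SETD5 in CPM at 0.664 of the control, and the GAPDH, PGK1 and SDHA values lie to its right at 0.836, 0.939 and 0.943.

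A 6-base word in 3′ UTRs, GCACCT, accompanied lower values in an earlier scan of these data, so its presence is given beside the members. Of the 11516 tested genes with a 3′ UTR in GENCODE 29 (1 transcript each), 28.1% held it. The word was picked with that scan known, so the contrast that follows, in the same data, is a description and not a test. Of those with the word 34.7% were called lower, against 24.3% of those without. Their median log2 fold change was -0.038, against 0.014, and their 3′ UTRs were longer (median 2416 against 756 bases). In all, 4 members held it once each, shown with 12 bases on either side and the word in capitals.
ALDOC: tctctcattgctGCACCTgggaccatagga
GAPDH: gcctagggagccGCACCTtgtcatgtacca
PGK1: cccataaacccaGCACCTagactctacaat
ENO2: gcattgaaatgaGCACCTccattaaagtct

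Of these, ALDOC, GAPDH and PGK1 fell and ENO2 did not. Of the 5 members without the word, ALDOA, TPI1, PGAM1 and ENO1 fell and ENO3 did not pass. Among the members 3 of 4 with the word and 4 of 5 without it were thus lower, too few to compare. Whether the word had a part in these values was not tested. The siRNA sequence is not given in the sources used here.

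Across the 6 libraries the genes whose log2 values ran most like the summed level of the 9 members were TMED9, SCMH1, MPZL2, TTR and SLC31A1 (Pearson r of 0.999 to 1.000 over 6 libraries, a description). Most like GAPDH were MYL9, TTR and SCMH1, and most like ENO1 were MPZL2, PIK3R2 and CCDC86. With 3 libraries on either side of a shift this measure mainly reads the group difference: 1475 genes had an r above 0.95 with the summed level.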

How the data were processed

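Poly(A) RNA of Huh7 cells was sequenced as stranded libraries, 3 control and 3 SETD5 knockdown, per the labels. The authors deposited log2 values of normalized CPM; STAR 2.5.1 and R 3.3.0 and the builds hg19 and mm10 stand in the submitters' processing notes without roles. For the counting, the scaling and any gene filter, the sources used here say nothing. The CPM summed to 993401 to 1004330 per library, so they were not scaled by the library total alone. Converted back to CPM, 100% of the values lay within 0.01 of whole multiples of 1 read, so reads per library could be recovered. No 2 libraries agreed within sampling noise (chi-square per gene 1.25 to 2.10 within groups).

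Genes averaging 1 CPM or more were tested with limma 3.58.1 in R 4.3.3 (eBayes with trend, group only, two-sided), with Benjamini-Hochberg adjustment over all 12865. The procedure was tested on simulated data. Ratios of 2 genes were compared with exact permutation tests. Named genes were the members, their paralogs, in each list the 4 largest called changes and 3 highest levels, and the genes most like the members. A gene that this rule also names is not reported here. Members, lists and the GCACCT word were chosen with earlier results of these data known. Promoters came from RefSeq (GRCh38.p14) and transcripts from GENCODE 29; hg19 coordinates were not used.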

Additional observations from a re-analysis of the deposited data

How the results depend on the processing

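The fold change of each member was recomputed under up to 15 alternatives: a pseudocount of 0.1, no filter or a filter at 5 CPM, median centring, quantile normalization, no mean-variance trend, the replicate block, TREAT against a 1.2-fold change, each library left out, and voom on recovered reads, which was chosen after seeing the data. The count tests of edgeR and DESeq2 were not run, because the deposited values are log2 values. ALDOA, ALDOC, GAPDH, PGK1 and PGAM1 stayed lower and past the threshold in all 15. Against a 1.2-fold change TPI1 (adjusted p = 1) and ENO1 (adjusted p = 0.173) no longer passed, which left 5 members lower. Over all genes that setting called 826 lower and 640 higher, against 3403 and 3303. Without the trend ENO2 passed, so that 1 member was higher. The ENO3 change turned to -0.0051 without control replicate 2 and to -0.0005 without knockdown replicate 3, within a range of -0.0051 to 0.106 over the 6 libraries left out in turn. With libraries left out, the count of lower members was 7 throughout. The rises among other glycolysis genes went from 2 to 1 with the filter at 5 CPM, which removes HK1, and under TREAT. The falls among them, 8 as reported, were 9 with no filter, 7 without the trend and 6 under TREAT. The ENO2 to ENO1 difference was 0.583 with CPM + 1 in place of CPM, since adding 1 dampens the low ENO2 values, and 0.65 to 0.70 with a library left out. The ALDOC to ALDOA difference was then 0.0099 to 0.069.

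The deviations of same-numbered libraries correlated weakly, at r of -0.029, 0.113 and 0.102. For unlike-numbered libraries r was -0.137 to 0.048. The values 0.113 and 0.102 were the highest of all pairs, so whether the numbers mark pairs is not settled. With the replicate block 7 members were lower and 0 higher, and 8 other glycolysis genes were lower and 2 higher. The ratio differences, 0.67 and 0.038, are the same under that pairing by arithmetic, since every number occurs once in each group. They therefore do not test the pairing.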

Other observations

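GAPDH, TPI1 and ENO2 lie on the same stretch of chromosome 12 in RefSeq (GRCh38.p14), with 2 tested genes, SPSB2 and LRRC23, between TPI1 and ENO2. The stretch from GAPDH to ENO2 holds 18 tested protein-coding genes, ends included. Of these, 3 were lower (GAPDH, TPI1 and COPS7A, a COP9 signalosome subunit), 4 were higher and 11 did not pass, with a median log2 fold change of 0.071. The 4 higher genes were CHD4, a chromatin remodeler, ING4, MLF2 and PTMS, at 1.06 to 1.38 times the control. Among all tested genes 26.5% were called lower and 25.7% higher. GAPDH and TPI1 are themselves members and among the 3 lower, so no direction of the region is read from these counts. The neighbouring genes were looked at after the member values were seen.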
